A study of Mus musculus with 8 samples.

Results

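Messenger RNA of 4 enzymes of sterol synthesis (Mvk, Sqle, Cyp51 and Msmo1) and of 2 fatty acid desaturases (Scd1 and Scd2) was compared between HM-1 and R1, lines of mouse embryonic stem cells. The members are the 8 probes that the platform's annotation assigns to these symbols, out of 20355 probes on the array, and the 6 genes stand among 9930 named ones. They were chosen with their ratios in untreated cells already known, so those ratios are given as a description and carry no test. Each of the 8 arrays held RNA of both lines in 2 colours. On 4 arrays both lines had been given nocodazole, which depolymerises microtubules and arrests cells in mitosis, and on 4 arrays both were untreated. Nocodazole was the only agent named, with no dose or time. HM-1 carried Cy5 on nocodazole replicates 1 to 3 and Cy3 on nocodazole replicate 4, and it carried Cy5 on untreated replicates 1 and 2 and Cy3 on untreated replicates 3 and 4. That makes 37.5% of arrays with the dyes exchanged, where the design text states 50%. Nothing states that replicates were separate cultures, so a p-value here speaks of array-to-array spread that may be purely technical.

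Every value below is a log2 ratio of one line over the other on 1 array, centred on the median of that array. Which line is the numerator is not settled, so a sign tells whether arrays and genes go the same way and not which line had more RNA. On the 5 Cy5 arrays the code for an extreme ratio had a plus sign, and on the 3 Cy3 arrays a minus sign, the pattern that turning the Cy3 arrays before deposit would leave, but no label states such a step. The signs of the deposited table were kept, and the main comparisons are also given with the sign of the 3 arrays with HM-1 in Cy3 turned. A ratio holds no absolute level, so the identity of the cells could not be checked from marker levels, and levels of different genes could not be compared. In bulk RNA, fewer cells of a type and less RNA per cell cannot be told apart. Because treated and untreated cells never share an array, a difference between nocodazole and untreated arrays is a difference in the ratio between lines and not the response of a line to the drug.

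Cholesterol is built from acetyl-CoA through mevalonate, isoprenoid units and squalene, which is closed into lanosterol and then trimmed and reduced to cholesterol. Stearoyl-CoA desaturases place a double bond in saturated fatty acids and so supply oleate and palmitoleate for membranes and stored lipid. Genes of both routes are known targets of the SREBP transcription factors, which are released from the endoplasmic reticulum when sterol runs low. In growing embryonic stem cells both routes feed the making of membranes.

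Scd1 is a stearoyl-CoA desaturase of the endoplasmic reticulum, abundant in liver and fat. Its single probe, 2903, gave 0.33, -0.19, -0.033 and -0.22 on nocodazole replicates 1 to 4, and -0.19, -0.40, -0.45 and -0.58 on untreated replicates 1 to 4. Scd1 was negative on all 4 untreated arrays and on 3 of 4 nocodazole arrays, with nocodazole replicate 1 the only positive value. On that array the list medians of endoderm and trophectoderm markers were also positive (0.69 and 0.48), and on the other nocodazole arrays negative. Those of embryonic stem cell and adipocyte markers were negative on it (-0.15 and -0.30). That of fibroblast markers was -0.01 on it, against -0.25, -0.42 and -0.21 on nocodazole replicates 2 to 4. What sets that array apart was not tested. The Scd1 means were -0.0298 ± 0.25 with nocodazole and -0.40 ± 0.16 untreated (SD, n = 4 each). The ranges overlapped by a narrow margin, since the lowest nocodazole value, -0.22, lay under the highest untreated value, -0.19. With the deposited signs, Scd1 was negative in untreated cells under both labellings, with means of -0.29 on the Cy5 arrays and -0.51 on the Cy3 arrays (n = 2 each). With the Cy3 arrays turned, its untreated sign follows the dye.

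Scd2, the paralogue of Scd1 that predominates in brain and during development, had 2 probes that gave different pictures. Probe 3889 had a value on every array, at 0.25, -0.34, 0.024 and -0.46 with nocodazole (replicates 1 to 4) and at -0.58, -0.32, -0.24 and -0.036 untreated. This probe was negative on all 4 untreated arrays, as Scd1 was, and mixed with nocodazole, with means of -0.13 ± 0.33 with nocodazole and -0.29 ± 0.22 untreated (SD, n = 4 each). Probe 5552 had 5 values, at -2.13, -1.41, -2.74 and 1.45 on nocodazole replicates 1 to 4 and -3.03 on untreated replicate 2, and none on the other three untreated arrays. Its sign followed the dye of HM-1, negative on the 4 Cy5 arrays with a value and positive on the single Cy3 array. Quotients of whole numbers no larger than 10 were sought in the deposited values, before centring and with 1 offset per array taken off. Within 0.0015 log2 units, the values of probe 5552 on nocodazole replicate 4 and untreated replicate 2 equalled such a quotient. So did 2 of 8 values each of Scd2 probe 3889, Msmo1 probe 2130 and Cyp51 probe 18484. For Cyp51 probe 9497 it was 1 of 4, and for Scd1, Mvk and Sqle 0 of 8 each. Over all values of an array the share was 11.03% to 19.45%.

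Averaging both probes gave Scd2 a mean of -0.67 ± 0.81 with nocodazole and -0.63 ± 0.73 untreated (SD, n = 4 each). On untreated replicate 2 the gene mean was -1.67, which was the average of -0.32 and -3.03, while the other three untreated arrays rest on probe 3889 alone. The size of the Scd2 ratio in both groups therefore rests on probe 5552. Mouse Scd1 and Scd2 transcripts are similar in sequence and cDNA of one may bind the probe of the other, which was not tested. Over the 8 arrays the Scd1 probe and Scd2 probe 3889 had a Pearson r of 0.46 and a Spearman rho of 0.19, given as a description over arrays that share dyes and RNA sources.

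**Figure D1:**
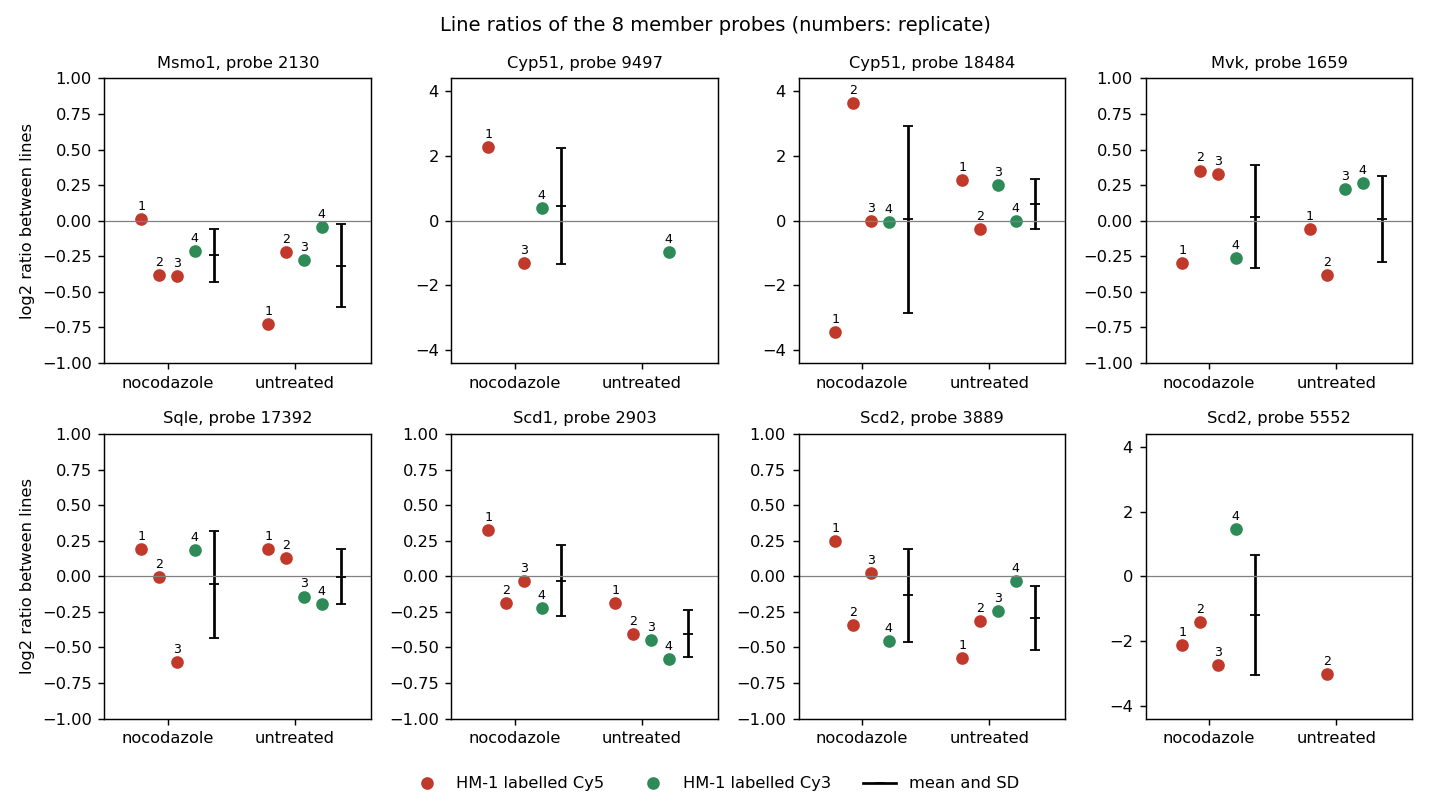
Each panel plots 1 probe, with the log2 ratio between the lines on the vertical axis, nocodazole arrays left of untreated arrays, replicate numbers above the points and colours for the dye of HM-1; black bars are the mean and SD where a group has more than 1 value. Probes 9497, 18484 and 5552 are drawn on a wider vertical axis than the other five, and Scd1, Msmo1 and Scd2 probe 3889 lie below 0 on all 4 untreated arrays.

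Mvk, mevalonate kinase, phosphorylates mevalonate early in the pathway. Its probe, 1659, was at -0.30, 0.35, 0.33 and -0.26 on nocodazole replicates 1 to 4 and at -0.06, -0.38, 0.22 and 0.27 on untreated replicates 1 to 4. The sign varied in both groups and the groups overlapped throughout, with means of 0.0298 ± 0.36 with nocodazole and 0.012 ± 0.30 untreated (SD, n = 4 each). In untreated cells the sign followed the dye, at a mean of -0.22 on the Cy5 arrays and 0.24 on the Cy3 arrays (n = 2 each).

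Sqle, squalene epoxidase, performs the first oxygen-dependent step and is a control point of the pathway. Its probe, 17392, was at 0.195, -0.005, -0.60 and 0.18 with nocodazole (replicates 1 to 4) and at 0.195, 0.13, -0.14 and -0.19 untreated. Only nocodazole replicate 3 lay beyond 0.20 in size, and the means were -0.0568 ± 0.37 with nocodazole and -0.0023 ± 0.19 untreated (SD, n = 4 each). Untreated values again split by dye, in the direction opposite to Mvk, at a mean of 0.16 on the Cy5 arrays and -0.17 on the Cy3 arrays (n = 2 each). Dye and line are exchanged between these pairs of untreated arrays, so a mean near 0 for Mvk and Sqle comes with opposite signs under the 2 labellings.

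Cyp51, the cytochrome P450 that removes a methyl group from lanosterol, had 2 probes. Probe 18484 was at -3.43, 3.64, -0.008 and -0.042 on nocodazole replicates 1 to 4 and at 1.27, -0.26, 1.10 and -0.016 on untreated replicates 1 to 4. The 2 extreme nocodazole arrays, both with HM-1 in Cy5, had opposite signs, and the spread on the nocodazole arrays was 2.89 (SD, n = 4). Probe 9497 had 4 values, at 2.28, -1.30 and 0.39 on nocodazole replicates 1, 3 and 4 and at -0.96 on untreated replicate 4. On nocodazole replicate 1 the probes were at 2.28 and -3.43, so they disagreed in sign, and their average was -0.58.

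The Cyp51 gene mean was 0.65 ± 2.03 with nocodazole and 0.41 ± 0.91 untreated (SD, n = 4 each), in both groups less than its spread. The nocodazole value rests on replicate 2, which alone was at 3.64. In the fit with a dye term the nocodazole ratio was 0.55 (SE 0.80), and without that array it was -0.32.

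Msmo1, the methylsterol monooxygenase that acts after Cyp51 and the sterol C14 reductase, was steadier. Its probe, 2130, was at 0.009, -0.38, -0.39 and -0.21 on nocodazole replicates 1 to 4 and at -0.73, -0.22, -0.27 and -0.044 on untreated replicates 1 to 4. It was negative on 7 of 8 arrays, nocodazole replicate 1 being the exception, and the groups overlapped. The means were -0.24 ± 0.19 with nocodazole and -0.32 ± 0.29 untreated (SD, n = 4 each). With the deposited signs it was negative in untreated cells under both labellings, at a mean of -0.47 on the Cy5 arrays and -0.16 on the Cy3 arrays (n = 2 each).

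The upstream sequences of Msmo1, Cyp51 and Mvk are shown because these 3 of the 6 members matched RefSeq's promoter table (build GRCm38.p6). They are enzymes of one pathway, known as SREBP targets, whose ratios did not go together. Msmo1 was mostly negative, Mvk changed sign with the dye in untreated cells and the Cyp51 probes disagreed. Whether the sequences bear on these ratios was not tested. Each line gives the 200 bases before the start, 5′ to 3′ on the gene's strand, and capitals mark CCAAT on either strand (read as ATTGG where it lies on the other strand), the box that NF-Y binds and that often accompanies SREBP sites.
Msmo1, chr8:64733579-64733778, minus strand: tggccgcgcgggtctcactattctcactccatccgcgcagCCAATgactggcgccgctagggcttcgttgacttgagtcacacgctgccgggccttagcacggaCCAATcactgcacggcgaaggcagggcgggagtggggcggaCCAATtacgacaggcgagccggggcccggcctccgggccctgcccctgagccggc
Cyp51, chr5:4104698-4104897, minus strand: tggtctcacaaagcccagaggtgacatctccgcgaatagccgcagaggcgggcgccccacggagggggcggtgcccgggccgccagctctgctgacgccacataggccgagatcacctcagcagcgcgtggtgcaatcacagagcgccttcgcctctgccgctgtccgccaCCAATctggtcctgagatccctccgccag
Mvk, chr5:114444069-114444268, plus strand: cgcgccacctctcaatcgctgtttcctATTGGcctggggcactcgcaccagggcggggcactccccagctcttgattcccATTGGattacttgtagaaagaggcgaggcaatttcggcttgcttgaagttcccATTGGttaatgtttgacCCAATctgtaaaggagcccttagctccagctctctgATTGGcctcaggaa

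In these windows CCAAT occurred 3 times for Msmo1, 1 time for Cyp51 and 5 times for Mvk. Of 32851 promoter windows of the same length in the table, 29.35% held CCAAT at least once and 2.05% held it 3 or more times. The Sp1 box GGGCGG occurred 2, 1 and 1 times, on either strand, and in 31.05% of all windows. No CCAAT overlapped a GGGCGG, and a match of letters is not a site shown to be bound.

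The spread between arrays separated the probes. Over the 4 nocodazole arrays the SD of probes 2130 (Msmo1), 2903 (Scd1), 3889 (Scd2), 1659 (Mvk) and 17392 (Sqle) was between 0.19 and 0.37, against a median of 0.33 over 16036 probes with 4 values. Probe 5552 of Scd2 had an SD of 1.85 and probe 18484 of Cyp51 one of 2.89, higher than 94.49% and 98.9% of these probes. Over the untreated arrays probe 18484 had an SD of 0.77, higher than 82.72% of 15115 probes, and the 5 steadier probes lay between 0.16 and 0.30, against a median of 0.29.

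**Figure D2:**
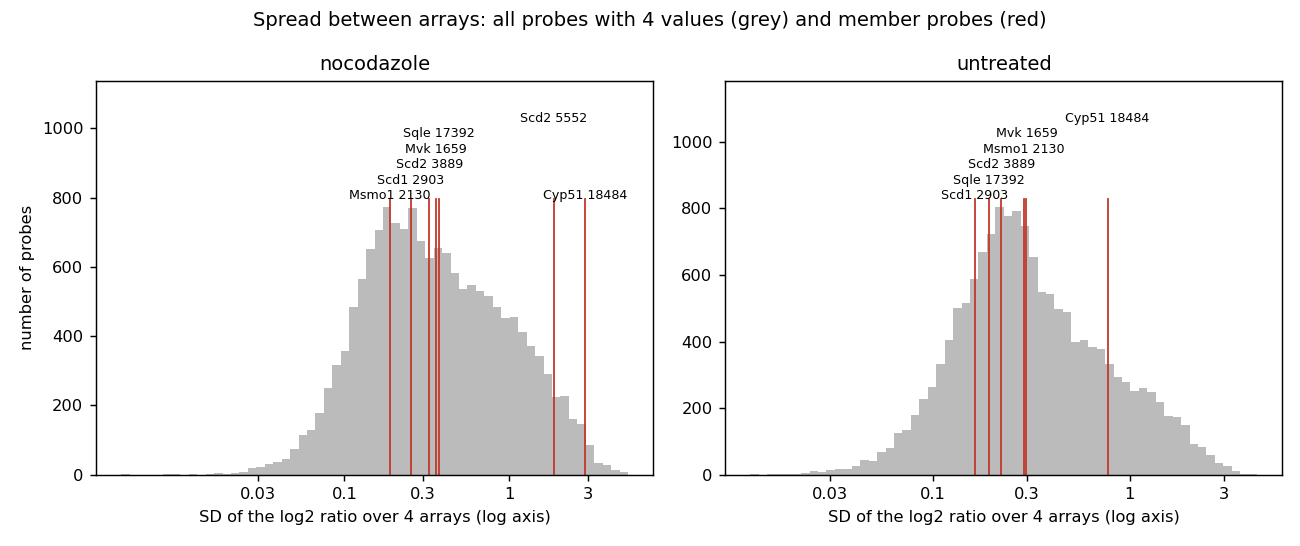
Histograms of the SD of the log2 ratio over 4 arrays (log axis) for all probes with 4 values, nocodazole left and untreated right; red lines mark the member probes with 4 values. Probes 5552 (Scd2) and 18484 (Cyp51) lie in the right tail with nocodazole, at 1.85 and 2.89, and the other five lie near the middle.

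Set against each other, the sterol enzymes had higher ratios than the desaturases on all 4 untreated arrays, as the choice of members allows. The mean of the 4 sterol enzymes minus the mean of the 2 desaturases was 0.14, 1.43, 0.37 and -0.17 on nocodazole replicates 1 to 4 and 0.55, 0.86, 0.57 and 0.19 on untreated replicates 1 to 4. The gap averaged 0.44 ± 0.70 with nocodazole and 0.54 ± 0.27 untreated (SD, n = 4 each), and the groups overlapped. With nocodazole, replicate 2 carried most of it: without that array the gap was 0.11.

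The gap depended on the probes. With the fuller probe of each gene (18484 for Cyp51, 3889 for Scd2) and picked with the values in view, it was -1.17, 1.17, -0.16 and 0.26 with nocodazole and 0.55, 0.18, 0.57 and 0.31 untreated, with means of 0.0226 ± 0.97 and 0.40 ± 0.19 (SD, n = 4 each; nocodazole and untreated). With the deposited signs the gap was positive on all 4 untreated arrays in either version and had no common sign with nocodazole. With the Cy3 arrays turned, the gap from gene means was positive on all 4 nocodazole arrays, at a mean of 0.53, and negative on 2 of 4 untreated arrays, at a mean of 0.16. The turned gap from the fuller probes was -1.17, 1.17, -0.16 and -0.26 on nocodazole replicates 1 to 4. Its means were -0.11 with nocodazole and -0.0383 untreated. The desaturase mean of the fuller probes was 0.29, -0.27, -0.0045 and -0.34 with nocodazole and lay between -0.38 and -0.31 on the untreated arrays. With Cyp51 left out, the mean of the other sterol enzymes was -0.0903 ± 0.0946 with nocodazole and -0.10 ± 0.0934 untreated (SD, n = 4 each), and the gap was 0.26 ± 0.35 and 0.42 ± 0.32.

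**Figure D3:**
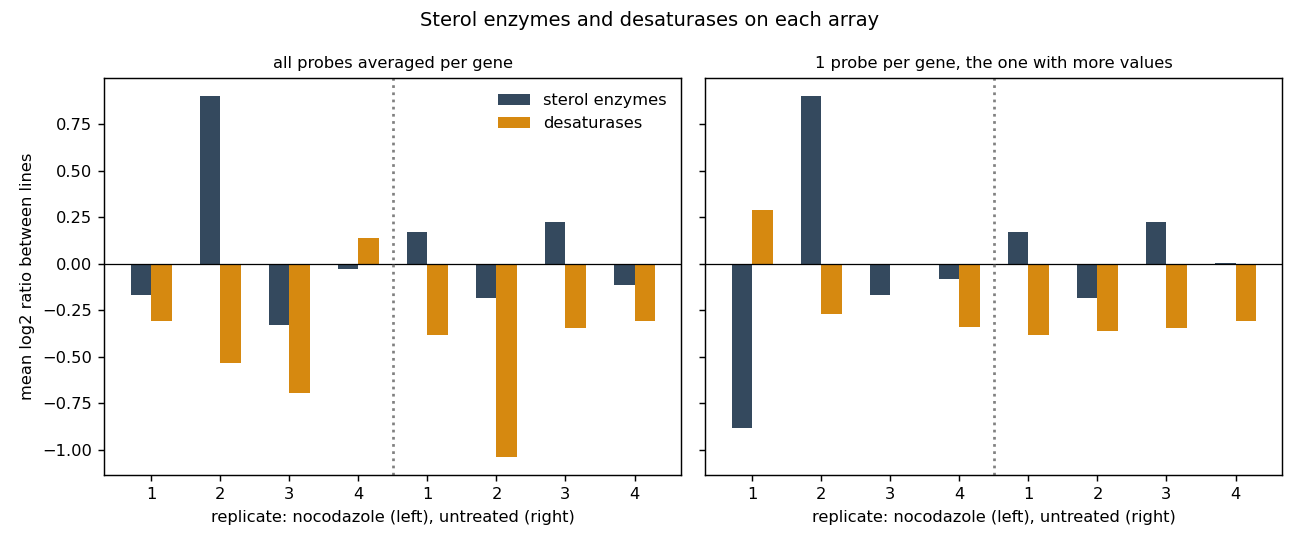
Bars give the mean log2 ratio of the 4 sterol enzymes and of the 2 desaturases on each array, nocodazole replicates left of untreated replicates, from all probes averaged per gene (left panel) and from the probe with more values (right panel). The desaturase bar lies under the sterol bar on all 4 untreated arrays in both panels, while on nocodazole replicates 1, 3 and 4 the order differs between the panels.

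With nocodazole, no member's ratio passed the test. In limma, with terms for group and dye and Benjamini-Hochberg adjustment over 14015 features, 0 of 6 members were called, and the background was 0% of features (0 called, 408 at an unadjusted p under 0.05). The fitted ratios were -0.36 (SE 0.21) for Scd2, -0.088 (SE 0.12) for Scd1, -0.19 (SE 0.14) for Msmo1, -0.069 (SE 0.17) for Sqle, 0.055 (SE 0.19) for Mvk and 0.55 (SE 0.80) for Cyp51. Each had an adjusted p of 0.999 in limma. Msmo1, Scd1 and the Scd2 mean were negative on 3 of the 4 nocodazole arrays, as were 31.6% of features on at least 3, and no member was negative on all 4, as 4.42% of features were. In untreated cells Msmo1, Scd1 and Scd2 were negative on all 4 arrays, beside 7.21% of features, and as this was known when they were chosen nothing is read from it.

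The differences between nocodazole and untreated arrays are given as values, since the untreated arrays were used in choosing the genes. The group means differed by 0.37 for Scd1, 0.24 for Cyp51, 0.0723 for Msmo1, 0.0178 for Mvk, -0.0381 for Scd2 and -0.0545 for Sqle. The Scd1 difference was larger than the SD of either group, but with the Cy3 arrays turned it was -0.0272, and the others were smaller than the larger SD of their groups. Dyes were divided 3 to 1 with nocodazole and 2 to 2 untreated. With the dye term the differences were 0.31 for Scd1 (0.23 without nocodazole replicate 1), 0.14 for Cyp51 and 0.12 for Msmo1. They were 0.0425 for Mvk, 0.27 for Scd2, which changed sign, and -0.0672 for Sqle. No feature was called in this difference or in the untreated comparison by limma (0% of 14015 in each), with 461 and 887 features at an unadjusted p under 0.05.

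With the Cy3 arrays turned, the picture of the members differed. The fitted nocodazole ratio was -0.68 (SE 0.22, adjusted p = 0.893 in limma) for Scd2, 0.22 for Scd1 and 0.0024 for Msmo1. The Scd2 mean was then negative on all 4 nocodazole arrays. That rests on probe 5552, whose deposited sign followed the dye of HM-1. Probe 3889 had deposited values of 0.25, -0.34, 0.024 and -0.46 on nocodazole replicates 1 to 4 and kept both signs after turning. In untreated cells Scd1 was at 0.11, and Scd1, Msmo1 and Scd2 were each negative on 2 of 4 arrays, while Mvk was negative and Sqle positive on all 4 arrays. Turning left 0 features called in each comparison.

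Medians over the wider sterol pathway were small in size, while single genes spread widely. Of 24 genes listed for sterol synthesis 15 had a probe and 14 were tested, with 0 called in either direction in each comparison. Over the 10 tested genes that are not members, 7 were negative with nocodazole and 8 untreated, with medians of -0.12 and -0.10. Over all features tested 51.36% were negative with nocodazole and 50.19% untreated, with medians of -0.0059 and -0.0008. The lowest with nocodazole were Ebp, the sterol isomerase, at -0.38 ± 0.33 with nocodazole and -0.20 ± 0.43 untreated, and Ggps1, which makes geranylgeranyl diphosphate on a side branch, at -0.29 ± 0.46 and 0.60 ± 0.79 (SD, n = 4 each; nocodazole and untreated).

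The highest were Lbr, a lamin receptor with sterol reductase activity, at 0.45 ± 0.89 with nocodazole (SD, n = 4) and 0.22 ± 0.53 untreated (SD, n = 3), and Pmvk, phosphomevalonate kinase, at 0.14 ± 0.21 with nocodazole and -0.15 ± 0.32 untreated (SD, n = 4 each). Of these 8 means only that of Ebp with nocodazole exceeded its SD. Dhcr7, which performs the last reduction to cholesterol, was singled out after its values were seen for the evenness of its untreated ratios. It was at 0.49, -0.50, -0.19 and -0.25 with nocodazole and at -0.18, -0.25, -0.197 and -0.36 untreated. Like Scd1, Dhcr7 was negative on all untreated arrays and positive with nocodazole on replicate 1 alone. Of features with 4 untreated values, 7.21% were negative on all 4 untreated arrays. The share of features with the whole pattern was not counted.

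**Figure D4:**
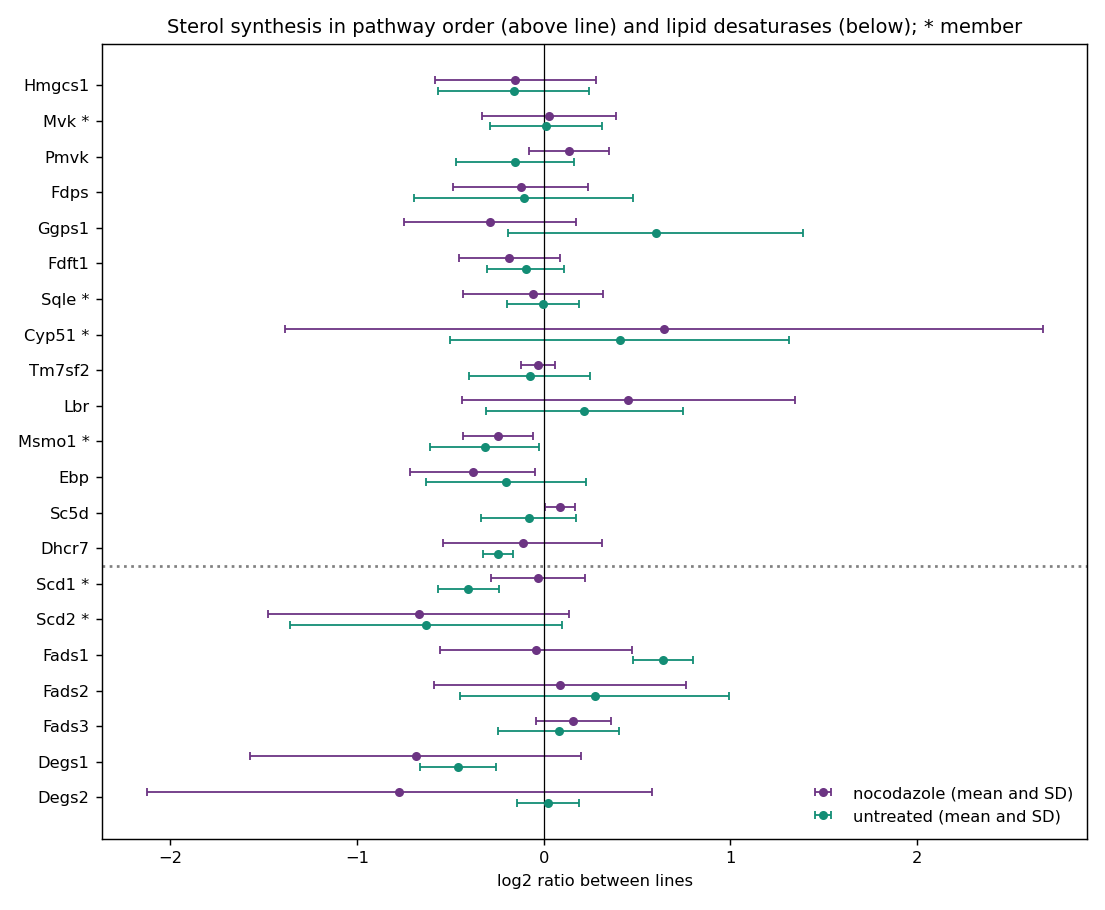
Points and bars give the mean and SD of the log2 ratio between the lines over the arrays of each group (purple, nocodazole; green, untreated), for tested genes of sterol synthesis in pathway order above the dotted line and lipid desaturases below it; asterisks mark the 6 members. Cyp51 has the widest bar in the sterol pathway with nocodazole (SD 2.03), and among the desaturases Scd1 and Fads1 have untreated means on opposite sides of 0.

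In the list of 10 lipid desaturases 7 had a probe and all 7 were tested, with 0 called. Fads1, the delta-5 desaturase of polyunsaturated fatty acids, was named after its values were seen as the gene of this list, besides the members, with an unadjusted p under 0.05 untreated. Its gene mean was at 0.055, 0.0757, 0.47 and -0.76 with nocodazole and at 0.49, 0.86, 0.63 and 0.58 untreated. Of its 3 probes, 12550 was at 1.86, 1.95 and 2.58 on untreated replicates 1, 2 and 4, whereas 5060 and 19920 each had both signs untreated, so the Fads1 mean rests on 1 probe too.

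Degs1 and Degs2, desaturases of the ceramide route, had the lowest nocodazole means, at -0.68 ± 0.89 and -0.77 ± 1.35, against -0.46 ± 0.20 and 0.0228 ± 0.17 untreated (SD, n = 4 each). The Degs1 gene mean was at 0.29, -1.50, -1.37 and -0.15 with nocodazole and at -0.41, -0.22, -0.48 and -0.72 untreated. It had the sign of Scd1 on all 8 arrays, but its probes came apart. Probe 1044 was at 0.29, 0.28, 0.085 and -0.15 with nocodazole and at 0.19, 0.12, -0.48 and -0.47 untreated. It thus did not share the signs of Scd1. Probe 7356 was at -3.28 and -2.83 on nocodazole replicates 2 and 3 and had no value on nocodazole replicates 1 and 4. Fads2 and Fads3, with the highest nocodazole means, were at 0.0888 ± 0.67 and 0.16 ± 0.20 with nocodazole and at 0.27 ± 0.72 and 0.0804 ± 0.32 untreated (SD, n = 4 each).

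Cytochrome b5 and its reductase pass electrons to Scd and Msmo1 alike. Cyb5a, Cyb5b and Cyb5r3 were near 0 with small spreads, at 0.01 ± 0.082, -0.038 ± 0.0934 and -0.0565 ± 0.17 with nocodazole and at -0.0633 ± 0.23, -0.0798 ± 0.22 and -0.14 ± 0.21 untreated (SD, n = 4 each), with 0 of 3 called.

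Among genes of sterol sensing, uptake and export, 10 of 22 had a probe and all were tested, with 0 called and medians of 0.0433 with nocodazole and -0.0899 untreated. The oxysterol-binding protein Osbp had the lowest nocodazole mean, -1.16 ± 0.69 against -0.0665 ± 0.38 untreated (SD, n = 4 each), with an unadjusted p of 0.00722 and an adjusted p of 0.999 in limma. It had 4 probes, of which 12878 lay between -0.196 and 0.27 on the nocodazole arrays while 8155 was at -4.88 and -4.24 on replicates 3 and 4. Insig2, which retains the SREBP complex in the endoplasmic reticulum, was at -0.65 ± 0.76 with nocodazole and -0.0515 ± 0.68 untreated. The highest were Mylip, a ligase that degrades the LDL receptor, at 0.398 ± 0.39 and 0.28 ± 0.27, and Mbtps1, a protease that cleaves SREBP, at 0.39 ± 1.52 and 0.37 ± 0.41 (SD, n = 4 each; nocodazole and untreated).

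Fatty acid synthesis and elongation had 15 of 18 genes with a probe, all tested, with 0 called and medians of -0.14 with nocodazole and -0.076 untreated. Me1, malic enzyme, a source of NADPH, was at 0.72, -0.69, -0.62 and -0.68 with nocodazole and at -0.29, -0.19, -0.53 and -0.64 untreated. Like Scd1 it was negative on all untreated arrays and positive only on nocodazole replicate 1, and so was the elongase Elovl1. How many of all features share that pattern was not counted. The elongase Elovl7 was at -0.54 ± 0.69 with nocodazole (SD, n = 3) and 0.53 ± 1.11 untreated (SD, n = 4). Acaca, acetyl-CoA carboxylase, was at 0.35 ± 0.53 with nocodazole and -0.0962 ± 1.298 untreated, and the elongase Elovl5 at 1.49 ± 2.95 and -0.20 ± 0.40 (SD, n = 4 each; nocodazole and untreated), with 5.91 on nocodazole replicate 2.

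For each member the genes of most similar pattern were sought among 7482 named genes with values on all 8 arrays, by Pearson r over these arrays. For Scd1 they were Alad (r = 0.99) and Tmem176b (0.98), and 61 genes reached 0.9. Alad was at 0.55, -0.26, 0.046 and -0.13 with nocodazole and at -0.15, -0.41, -0.47 and -0.66 untreated, which tracks Scd1 array by array. For Scd2 they were BC005537 (0.98) and Tarsl2 (0.96), for Msmo1 Kif22 (0.97) and Klhl28 (0.96), and for Cyp51 Smarcc1 and Pan2 (0.94 each). For Sqle they were Hadh (0.98) and Sirt3 (0.97), with 109 genes at 0.9 or more, and for Mvk Gapdhs and Armc3 (0.90 each), with 2. These r are descriptions over 8 arrays that share dyes and RNA sources, and each is the best of all genes searched.

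The members themselves were left out of that search, so it cannot tell whether they resemble each other. Between the members, taking the fuller probe, the highest r over 8 arrays was 0.69 (rho 0.48), for Msmo1 with Scd2, and the lowest was -0.75 (rho -0.67), for Mvk with Sqle. Msmo1 and Cyp51 had an r of -0.61 (rho -0.79).

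Arrays held between 17759 and 19342 values, and their SD was between 0.78 and 1.28, highest on nocodazole replicate 3. Quotients of whole numbers no larger than 10 made up 11.03% to 19.45% of an array's values, against 3.82% to 4.9% with the array's offset moved, and the number of arrays limits the precision. The list median of endoderm markers had the sign of Scd1 on every array, but Gata6, Col4a1 and Afp were negative on nocodazole replicate 1. Krt8 of the trophectoderm list and S100a4, Thbs1 and Thy1 of the fibroblast list also had the signs of Scd1. Other markers of those 2 lists did not, and the share of all features with these signs was not counted. In the endoderm list 11 of 16 genes were tested, 10 of them negative with nocodazole and 8 untreated. Over all features tested 51.36% were negative with nocodazole and 50.19% untreated. The endoderm median was 0.69 on nocodazole replicate 1, -0.80 to -0.71 on the other nocodazole arrays and -0.64 to -0.53 untreated. Of 17 fibroblast markers 15 were tested, 12 of them negative with nocodazole and 9 untreated, with list medians of -0.42 to -0.01 and -0.15 to -0.076. Of 18 embryonic stem cell markers 9 were tested, 5 of them negative with nocodazole and 1 untreated, with list medians of -0.15 to 0.17 and 0.024 to 0.34. Of 8 adipocyte markers 5 were tested, with list medians of -0.30 to 0.26 with nocodazole and -1.02 to 1.31 untreated. The part of other cell types, dye and dim spots in the members' ratios was not tested.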

How the data were processed

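The deposited table holds 1 log2 ratio per probe and array for 8 two-channel arrays, as read from the values. How the authors corrected background and normalized is not stated in any label, and the software is not given in the sources used. The labels' protocols describe organs and a pool of control animals, which the channel labels do not match. The deposited log2 values include 1 offset per array. An extreme ratio is coded as 100000 (16.6 in log2, without that offset) on the Cy5 arrays, and with a negative log2 sign on the Cy3 arrays. Such values, 74 to 203 per array, were set to missing, and each array was centred on its median. Symbols came from the platform annotation and were checked by gene ID through RefSeq (GRCm38.p6), which changed 0 of them. Of 14030 probes with 1 symbol 13994 matched, while 5 probes had several symbols and 6320 none. Probes of a symbol were averaged, and 14015 features with values on at least 3 arrays of each group were tested.

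The test was limma 3.58.1 (lmFit and eBayes, statmod 1.5.0, R 4.3.3) over all 8 arrays with group and dye terms, two-sided, Benjamini-Hochberg adjusted, threshold 0.05, tested on simulated data. The members and lists were chosen with earlier results of these data known. The text names the members, per member the 2 genes of highest r, and per list the 2 highest and 2 lowest nocodazole means among tested non-members. Replicate numbers 1 to 4 occur in both groups. Deviations of same-numbered arrays correlated at 0.13, 0.0206, -0.0513 and 0.0944, so the numbers were not taken to pair arrays. Alternatives covered coded values, centring, scaling, dye, sign, weights, probes, filters, a robust fit, a replicate block and single arrays left out.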

Additional observations from a re-analysis of the deposited data

Results flagged for a closer look

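In 53 groups of 4 arrays the highest and the lowest values were set against the others by Dixon's ratio, and 5 groups held an array apart, where chance gives about 1 in 20 groups, or 2.65. The desaturase mean over all probes was -1.04 on untreated replicate 2, against -0.38 to -0.31 on the other three untreated arrays, and that array alone among the untreated ones has a value from Scd2 probe 5552. The list of lipid desaturases had a median of 0.12 (0.115) on untreated replicate 4, against -0.24 to -0.18 on the others. On nocodazole replicate 1 the medians were 0.049 for fatty acid synthesis and elongation, against -0.0992 to -0.0832 on the other nocodazole arrays, 0.69 (0.685) for endoderm, against -0.80 to -0.71, and 0.48 (0.4765) for trophectoderm, against -0.73 to -0.66 over 2 genes.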

How the results depend on the processing

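Of 342 values of single members under alternative settings, 331 moved by less than the spread between arrays or kept their sign and side of the threshold. Of the 21 settings, the fuller probe and leaving out Cyp51 were applied to the gap alone. Many of these values could not move, since leaving out a nocodazole array leaves an untreated ratio as it was. Adjusted p-values far above the threshold could hardly cross it, so the count does not measure robustness. No setting called a member with nocodazole. The robust fit called 344 features untreated, 118 with nocodazole and 43 for their difference, against 0 in limma by least squares. Requiring values on all 8 arrays called 1 with nocodazole, the unnamed probe 1241 (1.34, SE 0.0932, adjusted p = 0.0316 in limma), named after its value was seen. With the Cy3 arrays turned, the median over members was -0.0284 untreated and the gap between sterol enzymes and desaturases 0.16 untreated. Fitted nocodazole ratios then changed sign for Msmo1 (0.0024) and Scd1 (0.22). Sqle changed sign with array weights (0.0005), in the robust fit (0.0231) and with a replicate block (0.0781). The block called 0 features in each comparison. With single arrays left out, nocodazole ratios ranged from -0.32 to 0.97 for Cyp51, from -0.0499 to 0.36 for Mvk and from -0.30 to 0.0977 for Sqle, and counts stayed at 0. The causes were not tested.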
